A study of Saccharomyces cerevisiae with 6 samples.

Results

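The tRNAs that carry alanine and threonine are described here. All tRNA sequences whose listed name gives one of these amino acids were taken, which selected 6 of the 70 sequences counted in the series, 2 for alanine and 4 for threonine. They make up 5 of 43 anticodon types, namely tRNA-Ala(AGC), tRNA-Ala(UGC), tRNA-Thr(AGU), tRNA-Thr(CGU) and tRNA-Thr(UGU). The last of these is listed as a first and a second sequence (TRNA-THR-TGT-1-1 and TRNA-THR-TGT-2-1).

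The tRNA pool of *Saccharomyces cerevisiae* was measured by tRNA-HySeq, in which gel-purified tRNA is broken by mild alkali and the short fragments, here of 19 to 35 nucleotides, are cloned and sequenced. There were 2 libraries for each of 3 genotypes, compared to ask whether loss of a Paf1 complex subunit alters relative tRNA levels. The wild type strain was DAS217, and the deletion strains were DAS549 (*rtf1∆*) and DAS516 (*paf1∆*), in each of which the gene was replaced by a HIS3 marker. All were grown to log phase in YEP medium with 2% dextrose at 30 °C. The wild type strain is not in the strain list of the study, so its background relative to the deletion strains is not known here, and nothing in the labels says that the libraries of a genotype came from separate cultures. The p-values therefore measure only the spread between these libraries, which may be technical.

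Alanine and threonine each have a complete box of codons that share their leading bases and differ in the last. In the yeast tRNAs whose anticodon starts with A, this adenosine is deaminated to inosine by the Tad2-Tad3 enzyme, and inosine can pair with U, C or A at the end of a codon. The U-starting and C-starting anticodons read the codons ending in A and G. tRNA genes are transcribed by RNA polymerase III from promoter elements inside the gene. Paf1 and Rtf1 belong to the Paf1 complex, which travels with RNA polymerase II during elongation. The study reports that this complex also occupies tRNA genes, at low levels.

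The 6 gene sequences are shown because their anticodons define the comparisons and because the likeness of the last 2 limits how their reads can be told apart. They are from the RefSeq annotation of the R64 genome build, written 5′ to 3′ in gene letters with the anticodon in capitals.
tRNA-Ala(AGC), 11 genes: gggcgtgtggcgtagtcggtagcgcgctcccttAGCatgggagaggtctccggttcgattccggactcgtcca
tRNA-Ala(UGC), 5 genes: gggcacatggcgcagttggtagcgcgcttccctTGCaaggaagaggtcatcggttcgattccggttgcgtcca
tRNA-Thr(AGU), 11 genes: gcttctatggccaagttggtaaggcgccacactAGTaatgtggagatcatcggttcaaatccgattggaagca
tRNA-Thr(CGU), 1 gene: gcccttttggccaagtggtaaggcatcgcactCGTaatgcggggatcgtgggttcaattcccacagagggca
tRNA-Thr(UGU), 1 gene: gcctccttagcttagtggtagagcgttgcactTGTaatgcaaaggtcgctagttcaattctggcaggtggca
tRNA-Thr(UGU), 3 genes: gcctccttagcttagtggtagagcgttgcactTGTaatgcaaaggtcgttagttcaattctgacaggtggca

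The annotation holds 275 nuclear tRNA genes with 70 distinct sequences, and 32 of the genes, 16 for alanine and 16 for threonine, carry these 6 sequences. None of the 32 has an intron. The only tRNA-Thr(CGU) gene, TRT2, lies on the minus strand of chromosome XI from 46735 to 46806. The single-gene UGU sequence lies on the plus strand of chromosome VIII from 466990 to 467061, and the UGU sequence with 3 genes lies on chromosome VII at 661749 to 661820 and 1004216 to 1004287 and on chromosome XVI at 744284 to 744355. The alanine sequences are 73 nucleotides long and the threonine sequences 72 or 73, so counts could be compared between them with little effect of length. The motif GTTCNANNC, searched on the strand that matches the RNA as a form of the B box of the internal promoter, occurred in all 6 sequences and in 98.2% of the 275 nuclear tRNA genes.

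tRNA-Ala(AGC) and tRNA-Ala(UGC) were identical at 81.1% of aligned positions, and every stretch of 19 nucleotides of either occurred in no other of the 70 sequences. The same held for tRNA-Thr(AGU) and tRNA-Thr(CGU). The UGU sequences differ only by C49T and G63A, counted from the 5′ end with the single-gene sequence first. They share exactly 30 of their 54 stretches of 19 nucleotides and 14 of their 38 stretches of 35 nucleotides. Where 1 mismatch is allowed, only 5 of the 54 stretches of 19 nucleotides of either UGU sequence fit no other of the 70. How the authors placed reads that fit both is not given in the sources used here, nor do the files say which listed UGU name belongs to which of the printed sequences. Counts of the separate UGU sequences are therefore uncertain, and their sum is given beside them.

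Between 519302 and 1435676 reads were aligned to tRNAs in the wild type and *rtf1∆* libraries, and 7906642 and 8259323 in the *paf1∆* libraries. tRNAs took between 5.64% and 6.76% of all reads in the former and 87.4% and 87.9% in the latter. Every reference length listed with the *paf1∆* libraries is 3 nucleotides longer. By the library names, both *rtf1∆* libraries and wild type replicate 2 belong to a set 2, wild type replicate 1 belongs to a set 1, and *paf1∆* is given no set. In the comparison of *paf1∆* with wild type, genotype, reference and library preparation cannot be told apart. Depth did not limit the levels, since the widest 95% Wilson interval of a member was 0.0950 percentage points of the aligned reads. This interval covers counting error only. The values are shares of a pool, so that a higher amount of 1 tRNA per cell and a lower amount of the others cannot be told apart.

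In wild type cells the A-starting anticodon was the most abundant of its amino acid for threonine in both libraries, but for alanine in only 1. tRNA-Thr(AGU), which reads the codons ending in U and C, took 3.15% and 2.62% of the aligned reads in wild type replicates 1 and 2. It ranked 6th and 8th by count among the 70 sequences, and its levels in these libraries differed by a factor of 1.20. tRNA-Ala(AGC), its counterpart for alanine, took 1.76% and 1.86%. With a ratio of 1.05 between replicates it was among the most even tRNAs in wild type in percent of aligned reads, ranking 69th of 70 when tRNAs were ordered from the largest ratio. This depended on the scale. After the TMM scaling used in the *paf1∆* test below, it was at 14730 and 21740 CPM in wild type, and tRNA-Ala(UGC) was at 15270 and 11420.

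In percent of aligned reads, the minor anticodons varied more between the wild type libraries. tRNA-Ala(UGC) took 1.83% in replicate 1 and 0.976% in replicate 2. tRNA-Thr(CGU), the product of TRT2, took 0.262% and 1.22%, and its 4.64-fold difference was the largest between the wild type replicates for any of the 70 sequences, where the median was 1.64-fold. The second listed UGU sequence took 0.425% and 1.09%, and the first took 0.189% and 0.0701%. The UGU sequences thus moved in opposite directions between replicates, the second being 2.24 times as abundant as the first in replicate 1 and 15.6 times in replicate 2. Their sum, 0.614% and 1.16%, differed less, by a factor of 1.89.

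**Figure D1:**
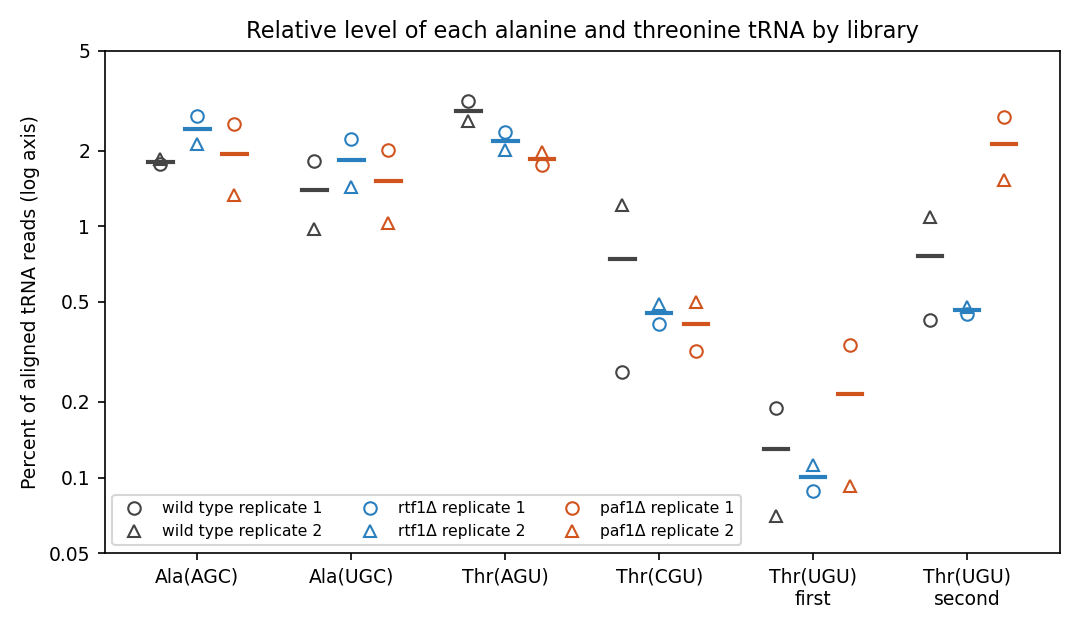
Percent of aligned tRNA reads (log axis) for each alanine and threonine tRNA, with 1 symbol per library and the mean of 2 libraries as a bar. In *paf1∆* both values of the second UGU sequence, 1.53% and 2.72%, lie above both wild type values and both values of tRNA-Thr(AGU), 1.75% and 1.97%, lie below, while the wild type values of tRNA-Thr(CGU) span those of both deletion strains.

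Within an amino acid, the share of each anticodon can be read in every library without scaling between libraries. tRNA-Ala(AGC) made up 49.1% and 65.6% of the alanine reads in wild type, 55.3% and 59.7% in *rtf1∆*, and 56.0% and 56.5% in *paf1∆*. All 4 values of the deletion strains lay between those of wild type, and the groups overlapped. The mean share was 57.3% ± 11.6 (SD, n = 2) in wild type, 57.5% ± 3.14 in *rtf1∆* and 56.2% ± 0.345 in *paf1∆*. The difference from wild type was -1.13 percentage points in *paf1∆* and 0.190 in *rtf1∆*, far below the spread of the wild type libraries, and took the opposite sign when 1 wild type library was left out (from -9.35 to 7.10 in *paf1∆* and from -8.03 to 8.41 in *rtf1∆*).

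For threonine, the shares of 2 anticodons in *paf1∆* lay outside the range of the other libraries. tRNA-Thr(UGU), which reads the codon ending in A, made up 15.3% and 23.3% of the threonine reads in wild type and 16.2% and 19.1% in *rtf1∆*, but 59.6% and 39.6% in *paf1∆*. Both *paf1∆* values were above all others, and the *rtf1∆* values lay between those of wild type. tRNA-Thr(AGU) made up 78.2% and 52.4% in wild type, 71.5% and 65.0% in *rtf1∆*, and 34.1% and 48.2% in *paf1∆*. Both *paf1∆* values were below all others, so that the UGU anticodon and not AGU was the most counted threonine tRNA in *paf1∆* replicate 1. tRNA-Thr(CGU) made up 6.51% and 24.3% in wild type, 12.3% and 15.9% in *rtf1∆*, and 6.25% and 12.3% in *paf1∆*, and its groups overlapped in the comparison of either deletion with wild type.

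The mean share of tRNA-Thr(UGU) was 30.3 percentage points higher in *paf1∆* than in wild type, at 49.6% ± 14.2 against 19.3% ± 5.67 (SD, n = 2). That of tRNA-Thr(AGU) differed by -24.2 points, at 41.1% ± 9.92 against 65.3% ± 18.3. These differences exceeded the SD within either group. With 1 library left out they ranged from 20.3 to 40.4 points and from -37.1 to -11.3 points. With 2 libraries in either group, the smallest two-sided p that an exact permutation test allows is 0.333, so no test of single shares was made. In *paf1∆*, 2 of the 5 alanine and threonine anticodons had shares that did not overlap with wild type, against 51.5% of the 33 anticodons from amino acids with several, and in *rtf1∆* 0 of 5 did, against 51.5% as well.

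**Figure D2:**
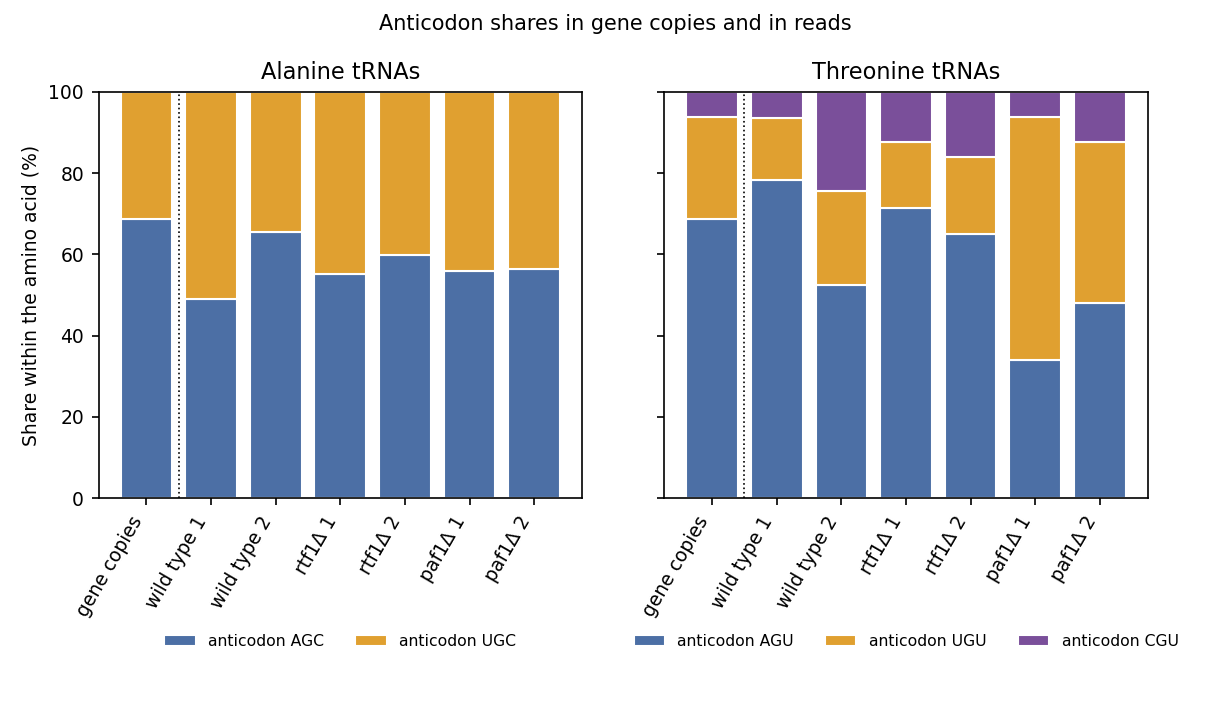
Share (%) of each anticodon in the reads of its amino acid in the 6 libraries, beside its share of the 16 gene copies of that amino acid. For tRNA-Ala(AGC) the bars of the deletion strains lie between those of wild type, at 49.1% and 65.6%. The anticodon UGU, with 25% of the threonine gene copies, takes 59.6% and 39.6% of the threonine reads in *paf1∆* and 15.3% to 23.3% in the other libraries.

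Gene copy number gave a further view of the shares. The A-starting anticodons have 11 of 16 genes (68.75%) for either amino acid. The share of tRNA-Ala(AGC) in the reads was 0.714 to 0.954 times its share of gene copies in the 6 libraries, and that of tRNA-Ala(UGC), with 5 genes, was 1.10 to 1.63 times. The minor alanine anticodon was thus above its gene share in all 6 libraries and the major one below. For threonine no such order was common to the libraries. tRNA-Thr(AGU) was at 1.14 and 0.762 times its gene share in wild type and at 0.496 and 0.701 times in *paf1∆*. tRNA-Thr(UGU), with 4 genes, was below its gene share in the wild type and *rtf1∆* libraries (0.610 to 0.931 times) and above it in the *paf1∆* libraries (2.38 and 1.58 times). Reads of the single gene TRT2 were at 1.04 times its gene share in wild type replicate 1 and at 3.89 times in replicate 2, which was the widest gap between replicates of a genotype for the 5 anticodons.

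Ratios between anticodons of an amino acid placed the 2 families in a common frame. The ratio of tRNA-Thr(AGU) to tRNA-Thr(UGU) was 5.13 and 2.25 in wild type, 4.42 and 3.41 in *rtf1∆*, and 0.572 and 1.22 in *paf1∆*. Both *paf1∆* ratios were below all others. The mean log2 ratio in *paf1∆* differed by -2.03 from that in wild type, a 4.07-fold shift, which was the fifth in size of 33 pairs of anticodons with a common amino acid, where the median size was 0.67. The log2 ratio of tRNA-Thr(CGU) to tRNA-Thr(UGU) differed by -1.89 (the sixth in size), while that of AGU to CGU differed by -0.14. A shift without overlap of the groups was thus seen between UGU and either of its partners, in ratios that hold the same UGU counts. For AGU over CGU no direction can be given. Its wild type ratios, 12.02 and 2.16 in replicates 1 and 2, lay on either side of those of *paf1∆*, 5.46 and 3.93. The groups did not overlap in 2 of the 4 alanine and threonine pairs in *paf1∆*, against 45.5% of all 33, and in 0 of 4 in *rtf1∆*, against 42.4%.

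For alanine, the ratio of AGC to UGC was 0.965 and 1.90 in wild type, 1.24 and 1.48 in *rtf1∆*, and 1.27 and 1.30 in *paf1∆*. Its log2 difference from wild type was -0.08 in *paf1∆*, the second smallest of the 33 pairs, and -0.0002 in *rtf1∆*, the smallest. These small differences of means come from wild type libraries that lie on either side of the deletion strains. The comparisons of *paf1∆* and *rtf1∆* with wild type share the same wild type libraries.

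**Figure D3:**
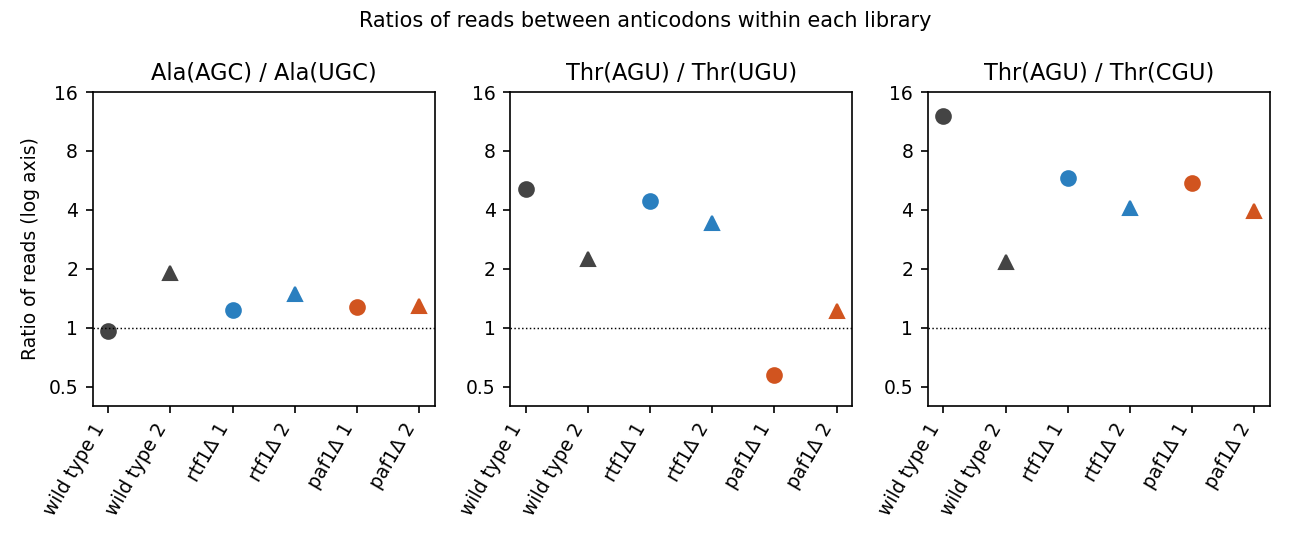
Ratio of reads between 2 anticodons of an amino acid in each library (log axis), with the dotted line at equal reads. For tRNA-Thr(AGU) over tRNA-Thr(UGU) the *paf1∆* libraries are at 0.572 and 1.22 and the other 4 libraries between 2.25 and 5.13, whereas the wild type libraries span the deletion strains in the other ratios shown.

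The relative levels were then compared between genotypes with the edgeR quasi-likelihood test on the counts, after TMM scaling, with Benjamini-Hochberg adjustment over all 70 sequences and a threshold of 0.05. In *paf1∆* 0 of the 6 alanine and threonine sequences passed the threshold, where 13 of 70 sequences (18.6%) did in all. None had an unadjusted p under 0.05 either, against 28.6% of all sequences. DESeq2 called 1 of the 6, against 40% of all sequences. The median log2 fold change of the 6 was 0.08 and that of all tRNAs -0.01, and the median size of change was 0.59 against 0.86. For 2 of the 6 the groups did not overlap, against 61.4% of all sequences on TMM-scaled counts and 57.1% in percent of aligned reads. One of the 2, tRNA-Thr(AGU), was separated on TMM-scaled counts by less than rounding, since wild type replicate 1 and *paf1∆* replicate 2 were both at 26320 TMM-scaled CPM.

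The second UGU sequence was the member with the largest fold change in *paf1∆*. It had 2206 and 15699 reads in wild type and 224272 and 120651 in *paf1∆*, which was 0.425% and 1.09% of the aligned reads against 2.72% and 1.53%. Both *paf1∆* levels were above both wild type levels, the nearest being *paf1∆* replicate 2 and wild type replicate 2. The log2 fold change was 1.33 ± 0.65 (SE), and it did not pass the threshold (edgeR quasi-likelihood test, adjusted p = 0.219). DESeq2 gave 1.45 with an adjusted p of 0.0486. The log2 fold change was 0.86 without wild type replicate 1 and 2.54 without wild type replicate 2. These are 1.81-fold and 5.8-fold differences, so the size of the difference depended on the wild type library that was kept. The first UGU sequence had 983 and 1007 reads in wild type and 27762 and 7339 in *paf1∆*, or 0.189% and 0.0701% against 0.336% and 0.0928%. *paf1∆* replicate 2 lay between the wild type libraries, and the log2 fold change was 0.67 ± 0.50 (edgeR, adjusted p = 0.337), with values from 0.13 to 1.42 when 1 library was left out.

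Because reads may be divided between the UGU sequences, the test was also made on counts summed by anticodon and adjusted over the 43 types. The sum for UGU was 0.614% and 1.16% of the aligned reads in wild type, 0.537% and 0.589% in *rtf1∆*, and 3.05% and 1.62% in *paf1∆*. Both *paf1∆* values were above the other 4. The log2 fold change in *paf1∆* was 1.49 ± 0.59, with an unadjusted p of 0.0415 and an adjusted p of 0.105 in the edgeR quasi-likelihood test. It was 0.99 without wild type replicate 1 and 2.14 without wild type replicate 2. The TMM factors were estimated anew on the sums, so these values and those of the separate sequences are not on a common scale. tRNA-Ala(AGC), whose counts are the same at either level, had a log2 fold change of 0.04 among the sequences and 0.25 among the sums. With total counts as the scaling, the UGU sum was at 1.39 and the second UGU sequence at 1.48. In all, 0 of the 5 alanine and threonine types passed the threshold on the sums, where 7 of 43 types (16.3%) did. At an unadjusted p under 0.05 it was 1 of 5, against 39.5%, and DESeq2 called 0 of 5, against 39.5% as well. In *rtf1∆* the sum was lower than in both wild type libraries in percent of aligned reads, but the groups overlapped after TMM scaling. Its log2 fold change was -0.43 ± 0.44 (adjusted p = 0.536, edgeR), which turned to 0.37 without wild type replicate 2.

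tRNA-Thr(AGU), the other threonine tRNA whose levels did not overlap in *paf1∆*, had 3.15% and 2.62% of the aligned reads in wild type and 1.75% and 1.97% in *paf1∆*. The *paf1∆* libraries were lower than both wild type libraries, and its rank by count was 19th and 11th of 70, where it was 6th and 8th in wild type. The log2 fold change was -0.52 ± 0.52 and did not pass the threshold (edgeR, adjusted p = 0.478). It was -0.03 without *paf1∆* replicate 1 and -1.09 without *paf1∆* replicate 2. tRNA-Thr(CGU) had 0.320% and 0.501% in *paf1∆*, between the wild type values of 0.262% and 1.22%. Its log2 fold change of -0.84 ± 0.90 (edgeR, adjusted p = 0.502) became 1.06 without wild type replicate 2 and -1.51 without wild type replicate 1. No direction can be given for this tRNA.

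The alanine tRNAs showed no direction in *paf1∆*. tRNA-Ala(AGC) had 2.56% and 1.33% of the aligned reads, on either side of the wild type values of 1.76% and 1.86%, and tRNA-Ala(UGC) had 2.01% and 1.03% against 1.83% and 0.976%. Both were about 1.9 times as abundant in replicate 1 as in replicate 2 of *paf1∆* (1.92-fold and 1.95-fold), where the median ratio of all tRNAs was 1.83. The log2 fold changes were 0.04 ± 0.45 for AGC and 0.13 ± 0.43 for UGC, with adjusted p of 0.965 and 0.907 in the edgeR quasi-likelihood test. Both changed sign with a library left out, to -0.04 and -0.07.

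In *rtf1∆* the alanine tRNAs were higher than in wild type by similar amounts, but did not pass the threshold. tRNA-Ala(AGC) had 2.75% and 2.14% of the aligned reads against 1.76% and 1.86% in wild type. Both *rtf1∆* libraries were above both wild type libraries. tRNA-Ala(UGC) had 2.23% and 1.44% against 1.83% and 0.976%, so that the groups overlapped in percent of aligned reads, although not after TMM scaling. The log2 fold changes were 0.69 ± 0.40 and 0.72 ± 0.38, with adjusted p of 0.224 and 0.217 (edgeR quasi-likelihood test over 70 sequences). Within set 2, that is without wild type replicate 1, they were 0.45 ± 0.23 and 0.95 ± 0.25 with adjusted p of 0.154 and 0.0181, and without wild type replicate 2 they were 1.01 ± 0.23 and 0.53 ± 0.23 with adjusted p of 0.000382 and 0.0554. In these fits the lone wild type library is assumed to vary like the *rtf1∆* libraries, which alone supply the spread and whose median ratio between replicates was 1.13, against 1.64 in wild type. Their p-values therefore leave out the spread of wild type, and which alanine tRNA passed the threshold depended on the wild type library that was kept.

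The threonine tRNAs had no common direction in *rtf1∆*. tRNA-Thr(AGU) had 2.37% and 2.01% of the aligned reads, below the wild type values of 3.15% and 2.62%, but the groups overlapped after TMM scaling and the log2 fold change was -0.11 ± 0.41 (edgeR, adjusted p = 0.926). tRNA-Thr(CGU) had 0.409% and 0.491%, between the wild type values. The first UGU sequence had 0.0882% and 0.112%, also between the wild type values, and a log2 fold change of 0.03 ± 0.30 that was -0.37 with total counts as the scaling. The second UGU sequence had 0.449% and 0.477%, again between the wild type values of 0.425% and 1.09%. For tRNA-Thr(CGU) and the second UGU sequence the log2 fold changes were -0.59 ± 0.32 and -0.55 ± 0.32 (edgeR, adjusted p = 0.217 and 0.224). Within set 2 they were -1.36 ± 0.24 and -1.17 ± 0.23 (adjusted p = 0.00173 and 0.00265), and without wild type replicate 2 they were 1.33 ± 0.28 and 0.67 ± 0.26 (adjusted p = 9.81e-05 and 0.0405). The sign for these tRNAs was thus opposite with either wild type library alone, and the p-values again rest on the spread of the *rtf1∆* libraries only.

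In *rtf1∆* 0 of the 6 sequences passed the threshold with all 4 libraries, where 4 of 70 (5.71%) did in all. None had an unadjusted p under 0.05, against 25.7% of all sequences, and DESeq2 called 0 of the 6, against 2.86%. The groups did not overlap for 2 of the 6 on either scale, tRNA-Ala(AGC) and tRNA-Ala(UGC) on TMM-scaled counts, against 55.7% of all sequences, and tRNA-Ala(AGC) and tRNA-Thr(AGU) in percent of aligned reads, against 57.1%. With the spread of the *rtf1∆* libraries only, within set 2 the test called 3 of the 6, against 21.4% of all sequences, and without wild type replicate 2 it called 3 of the 6, against 32.9%. On the anticodon sums it called 0 of 5, as it did 0% of all 43 types, with 16.3% of the types and 0 of the 5 at an unadjusted p under 0.05, and DESeq2 called 0 of 5, against 4.65%. The median log2 fold change of the 6 was -0.04 and that of all tRNAs -0.06. A scaling by total counts moved the median of all tRNAs in *rtf1∆* by -0.31. tRNA-Met(CAU) had 74610 and 258739 of 519302 and 1435676 aligned reads in wild type, and 255844 and 229492 of 771121 and 588048 in *rtf1∆*. A larger share of that tRNA lowers the shares of the others, and its part in the shift was not tested.

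**Figure D4:**
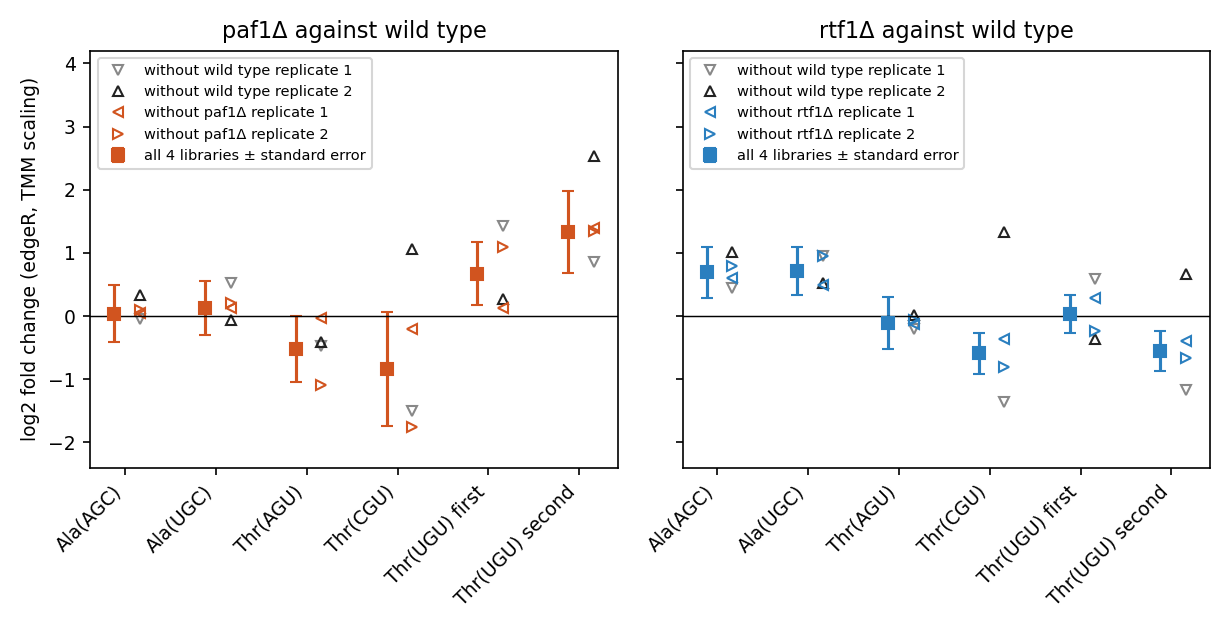
The log2 fold change of each alanine and threonine tRNA against wild type, with the value from all 4 libraries and its standard error as a square and the values with 1 library left out as triangles. For tRNA-Thr(CGU) the values without wild type replicate 1 and without wild type replicate 2 are -1.51 and 1.06 in *paf1∆* and -1.36 and 1.33 in *rtf1∆*.

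As sums over an amino acid, alanine tRNAs took 3.21% ± 0.535 of the aligned reads in wild type, 4.28% ± 0.994 in *rtf1∆* and 3.47% ± 1.56 in *paf1∆* (SD, n = 2). Threonine tRNAs took 4.51% ± 0.689, 3.21% ± 0.160 and 4.60% ± 0.727. Such percents also fall where another tRNA takes more of the reads, as tRNA-Met(CAU) did in *rtf1∆* and tRNA-Arg(UCU) in *paf1∆*. The ratio of alanine to threonine reads was 0.892 and 0.567 in wild type, 1.5 and 1.16 in *rtf1∆*, and 0.893 and 0.578 in *paf1∆*. Both *rtf1∆* ratios were above the other 4, and those of *paf1∆* covered the same range as those of wild type. The threonine total of *paf1∆* was thus near that of wild type. Within it, the shares of UGU and AGU did not overlap with those of wild type. These shares are not independent, since a higher share of UGU lowers that of AGU. Shares without overlap were also seen in *paf1∆* for 51.5% of the 33 anticodons from amino acids with several.

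The other yeast tRNAs read with inosine have A-starting anticodons for arginine, isoleucine, proline, serine and valine. They are listed as 8 sequences, of which 3 were higher and 1 lower in *paf1∆*, where 8.57% of all sequences were higher and 10% lower. In *rtf1∆* 0 were higher and 2 lower, where 0% and 5.71% of all sequences were (edgeR quasi-likelihood test, adjusted over 70 sequences). Their median log2 fold change was 0.63 in *paf1∆* and 0.05 in *rtf1∆*. Of the 14 sequences of their U-starting or C-starting partners, 2 were higher and 1 lower in *paf1∆* and none passed in *rtf1∆*. The share of the A-starting anticodon in its amino acid in wild type, *rtf1∆* and *paf1∆* was 79.5%, 83.0% and 74.1% for isoleucine. It was 27.3%, 27.5% and 6.71% for arginine, 21.3%, 35.7% and 14.8% for proline, and 40.9%, 34.9% and 61.0% for valine. For serine it was 94.7%, 96.5% and 89.4%, but the *paf1∆* libraries, at 80.1% and 98.8%, lay on either side of those of wild type. The difference of *paf1∆* from wild type for arginine, -20.6 percentage points and without overlap, was the nearest in size to that of threonine (-24.2). The arginine reads include those of tRNA-Arg(UCU), which made up 46.3% of them in wild type and 89.4% in *paf1∆*. The tRNA-Arg(ACG) sequences themselves had log2 fold changes of 1.54 and 0.21 in *paf1∆*, whereas that of tRNA-Thr(AGU) was -0.52. The mean share of the A-starting anticodon was also lower for isoleucine and proline and higher for valine. Whether threonine differs from these families was not tested.

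The anticodon types whose levels followed those of the members most closely over the 6 libraries were named by the root mean square distance of log2 shares, each centred over the libraries. tRNA-Ala(AGC) was nearest to tRNA-Leu(CAA), at 0.150, and then to tRNA-Ala(UGC), at 0.295. tRNA-Ala(UGC) was nearest to tRNA-Lys(CUU), at 0.204, with tRNA-Ala(AGC) next. The alanine tRNAs were thus each among the 2 types most like the other. tRNA-Thr(AGU) was nearest to tRNA-Tyr(GUA), at 0.277, and tRNA-Val(CAC), at 0.356. tRNA-Thr(UGU) was nearest to tRNA-Lys(UUU), at 0.529, and tRNA-Arg(ACG), at 0.600, and tRNA-Thr(CGU) to tRNA-Val(UAC), at 0.559, and tRNA-Thr(AGU), at 0.745. The threonine tRNAs had fewer close matches among themselves. These distances rest on 6 libraries that share their depth and set with all types, and they are a description only.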

How the data were processed

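Size-selected tRNA was partly hydrolysed, and fragments of 19 to 35 nucleotides were made into libraries. Adapter clipping, quality trimming and alignment to a reference of unique tRNA sequences were done by the authors on Galaxy, and the deposited values are raw counts per sequence from IdxStats. Bowtie and SAMtools are named in the submitters' processing notes. Settings for mismatches and for reads that fit several sequences are not given in the sources used here. Inosine is copied as G, so reads across an A-starting anticodon carry a mismatch to the gene sequence, and its effect on the counts was not tested.

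Genotypes and replicates followed the labels, with which the numbers in the *rtf1∆* library names are crossed. Replicates differed by more than sampling noise. Each deletion was compared with wild type on its own 4 libraries with edgeR 4.0.16 in R 4.3.3 (TMM, quasi-likelihood test, two-sided, Benjamini-Hochberg over 70 sequences or 43 anticodon sums). A filter of at least 10 counts in 2 libraries removed no sequence. The standard error is the size of the log2 fold change over the root of its F value. Alternatives were other scalings, DESeq2 1.42.0, a filter of 1000 counts, a fit on 6 libraries, replicate blocks and leaving out each library. The edgeR test was tried on simulated counts in which 20 of 70 tRNAs were changed by a log2 of 2. It recovered 58.8% of these in the *paf1∆* setting and 98.1% in the *rtf1∆* setting, and 5.01% and 3.73% of its calls were false. In *paf1∆* a tRNA that did not pass the threshold may therefore still differ. The largest log2 fold changes of the member sequences were 1.33 in *paf1∆* and 0.72 in *rtf1∆*. Recovery of changes smaller than 2 was not tried, so in *rtf1∆* too a tRNA that did not pass may still differ. Named tRNAs are all members, the other inosine-read tRNAs with their partners, and the 2 nearest types. tRNA-Met(CAU) and tRNA-Arg(UCU) are named for their large shares of reads. The members and lists were chosen with earlier results of these data known.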

Additional observations from a re-analysis of the deposited data

How the results depend on the processing

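In *paf1∆*, the 13 sequences called by edgeR became 21 with upper-quartile scaling, 28 with DESeq2 and 20 with the replicate block, and 0 to 17 with 1 library left out (8 without wild type replicate 1 and 0 without wild type replicate 2). The 7 anticodon types called became 12 with total counts, 4 with upper-quartile scaling, 17 with DESeq2, 15 in a fit on all 6 libraries and 0 with the block, and 0 to 5 with 1 library left out. Of the alanine and threonine sequences, 1 was called with DESeq2 and 1 with the block, which was the second UGU sequence in either, with a log2 fold change of 1.61 and adjusted p of 0.0151 under the block. On the UGU sum the block gave 1.57 with an adjusted p of 0.25. Over the 8 settings that kept all libraries, the value of the second UGU sequence ranged from 1.26 to 1.61 and its adjusted p from 0.0151 to 0.219. The UGU sum passed the threshold in none of them.

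In *rtf1∆*, the 4 sequences called became 1 with total counts, 2 with DESeq2, and 0 with upper-quartile scaling, the filter of 1000 counts, the fit on all 6 libraries and both replicate blocks, and ranged from 0 to 23 with 1 library left out. That was 15 without wild type replicate 1, 23 without wild type replicate 2 and 0 without either *rtf1∆* library. The 0 anticodon types called became 1 with DESeq size factors, 4 with total counts, 2 with upper-quartile scaling and 2 with DESeq2, and 0 to 5 with 1 library left out. The alanine and threonine sequences called ranged from 0 to 3, with 3 when either wild type library was left out. The first UGU sequence had no value under the filter of 1000 counts.

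Log2 fold changes took the opposite sign for tRNA-Ala(AGC) in *paf1∆* with upper-quartile scaling (-0.05) and for the first UGU sequence in *rtf1∆* with DESeq size factors (-0.02), total counts (-0.37) and DESeq2 (-0.03). With 1 library left out the values ranged in *paf1∆* from -0.04 to 0.34 for Ala(AGC), from -0.07 to 0.53 for Ala(UGC), from -1.09 to -0.03 for Thr(AGU), from -1.75 to 1.06 for Thr(CGU), from 0.13 to 1.42 for the first and from 0.86 to 2.54 for the second UGU sequence, and in *rtf1∆* from -0.20 to 0.02 for Thr(AGU), from -1.36 to 1.33 for Thr(CGU), from -0.37 to 0.59 for the first and from -1.17 to 0.67 for the second UGU sequence. Among the anticodon sums, *paf1∆* ranged from -0.21 to 0.36 for Ala(AGC), from -0.16 to 0.62 for Ala(UGC), from -1.62 to 1.07 for Thr(CGU), from -1.01 to -0.30 for Thr(AGU) and from 0.99 to 2.14 for Thr(UGU), and *rtf1∆* from -1.33 to 1.28 for Thr(CGU) and from -0.95 to 0.37 for Thr(UGU). The causes were not tested, apart from the smaller number of libraries.

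Same-numbered libraries of a deletion and wild type deviated together with correlations of 0.1 (*paf1∆*) and 0.253 (*rtf1∆*) over 70 tRNAs, but with 2 pairs and no label that ties a number to a culture or day the numbers do not pair the libraries. The limits are the 2 libraries per genotype, the wild type replicates, which lie far apart for tRNA-Thr(CGU) and tRNA-Thr(UGU), the near-identical UGU sequences, and the *paf1∆* libraries, whose reference and share of tRNA reads differ from the rest. The differences between deletion and wild type in the anticodon shares of alanine and threonine moved by less than the pooled SD of the 2 groups per nucleotide and with the most counted UGU sequence alone. Leaving out 1 library cannot be judged in this way, since with 2 libraries per group the move can never exceed that SD.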
